A study of Mus musculus with 8 samples.

Results

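Interleukins are secreted signalling proteins of immune and tissue cells, and the genes described here are the 76 of 19884 rows of the count table whose symbol is Il directly followed by a digit, with 7 names left out (Il6, Il6ra, Il6st, Il11, Il11ra1, Il34 and Il13ra2). The 76 rows carried 75 symbols, because Il11ra2 had 2 gene identifiers, and they hold both ligands and receptor chains. RNA was sequenced from whole uterus (n = 4 libraries) and whole maternal brain (n = 4) of untreated wild-type C57BL/6J females aged 6 to 10 weeks. The females had been mated with fertile males, the day of the vaginal plug was counted as day 1, and organs were taken on day 4 of gestation, with pregnancy checked by flushing blastocysts from the uterus. All animals were pregnant, so the comparison is of uterus with brain at 1 stage and holds no non-pregnant control. Where nothing else is said, values are CPM, counts made comparable between libraries by their TMM-scaled totals, and errors are SD over 4 libraries. Changes are given on the log2 scale as uterus over brain, ± SE, with the adjusted p of edgeR's quasi-likelihood test.

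An interleukin acts by joining receptor chains on its target cell, and several of these chains are shared. The IL-1 family signals through receptors with an intracellular TIR domain, and those for IL-1, IL-33 and IL-36 share the accessory chain IL1RAP. IL-2, IL-4, IL-7, IL-9, IL-15 and IL-21 share the common gamma chain, and they signal, like the IL-10 and IL-12 families, through JAK kinases and STAT factors, while IL-17 receptors use the adaptor ACT1. Around implantation in mice, IL-15 is known as the cytokine that uterine natural killer cells need, and IL-1 and IL-33 are studied as alarm signals of uterine and brain tissue.

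Library totals ran from 35394603 to 40254254 counts in uterus and from 40115616 to 47790178 in brain. A floor of 3 counts corresponded to 0.0699 to 0.0761 CPM in a uterus library and 0.0692 to 0.0810 CPM in a brain library. Counts of 2 were more frequent than counts of 1, at 531 to 619 against 212 to 235 genes in a uterus library and 503 to 566 against 215 to 249 in a brain library. Counting intervals take each count as 1 molecule and cover counting error only, so they are too narrow if both reads of a pair were counted, which the sources used here do not state. The organ labels fitted their markers: 4 Muellerian tract genes summed to 1017 to 1176 CPM in uterus and 29.6 to 39.8 in brain, and 4 neuronal genes to 1.94 to 3.89 CPM in uterus and 4521 to 4779 in brain. In such whole-organ libraries, more cells of a type and more RNA per cell cannot be told apart.

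Receptor genes outnumbered ligand genes among the tested members, and most of them were called higher in uterus. Of the 76 members, 47 passed the filter on low counts, and of these 31 were called higher in uterus and 12 higher in brain, while 4 were not called. Over all 16074 tested genes, 87.0% were called, 43.5% toward uterus and 43.6% toward brain. That even split depended on scaling, since upper-quartile scaling called 8182 genes toward uterus and 5966 toward brain, with the member counts at 31 and 12 as before. When tested against a 2-fold change, 28 of the 47 passed toward uterus and 9 toward brain. Of all tested genes 49.3% passed it, 23.5% toward uterus and 25.8% toward brain. Because a weakly expressed gene passes the filter through the organ where it is high, these counts describe the tested members only. Of 33 tested receptor and binding protein genes, 26 were called toward uterus and 5 toward brain, and their median log2 fold change was 2.37. Of 14 tested ligand genes, 5 were called toward uterus and 7 toward brain, and their median was -0.39, where that of all tested genes was 0.012. The plot of fold changes by family shows both groups.

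**Figure D1:**
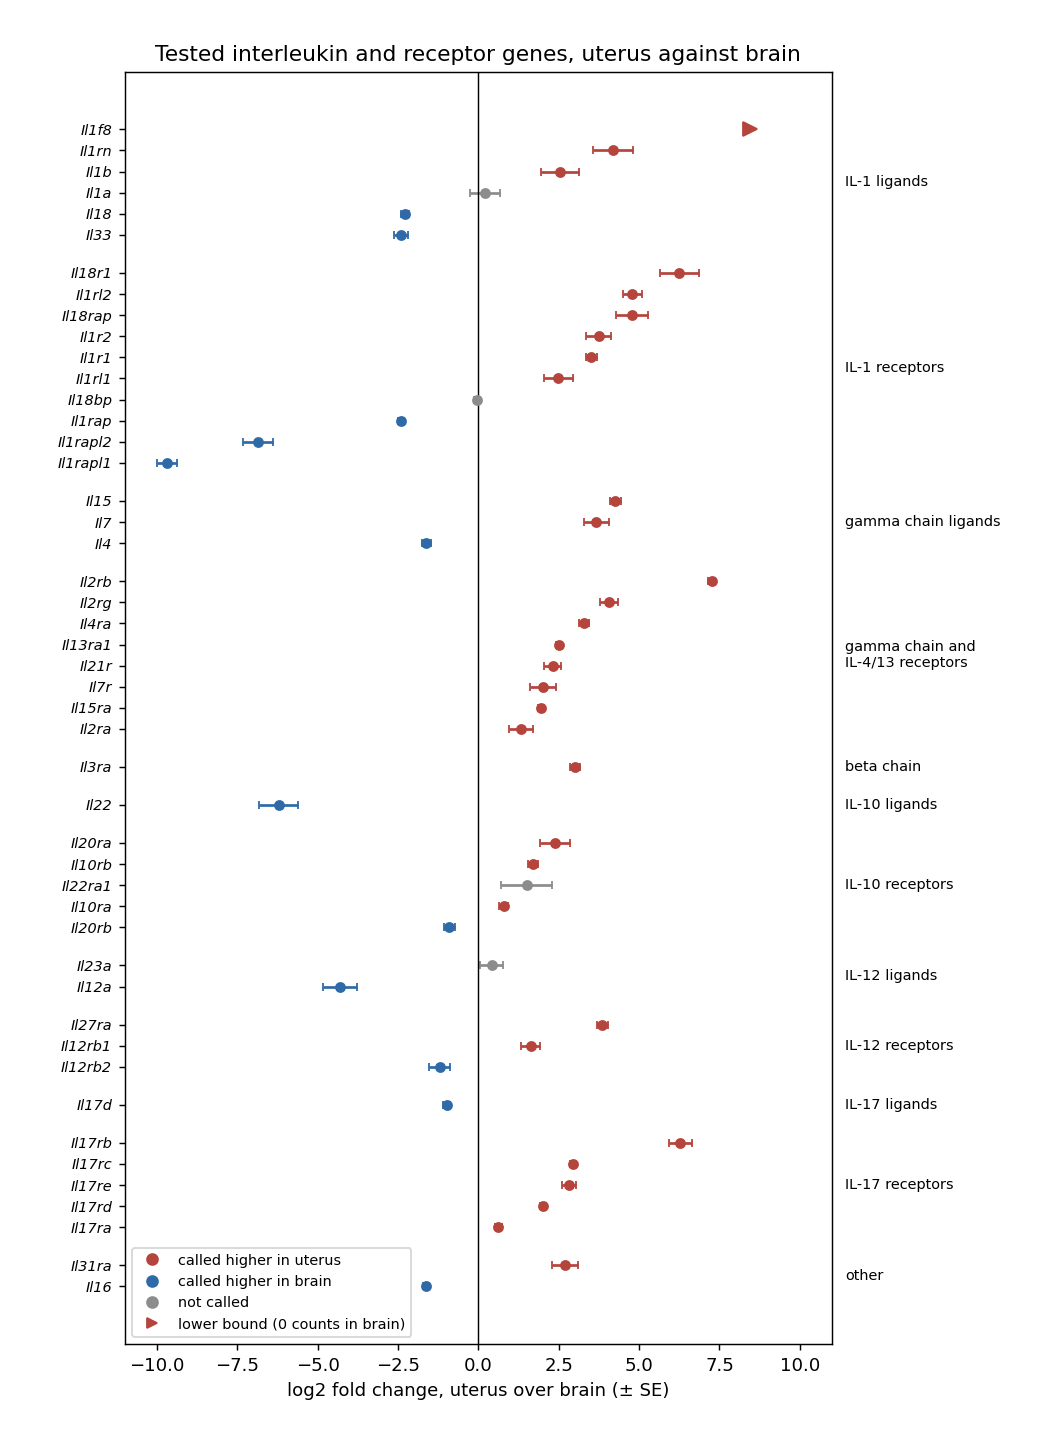
Log2 fold change of uterus over brain with its SE (x axis) for the 47 tested members (y axis), grouped by family. Red points were called higher in uterus, blue points higher in brain and grey points were not called; the triangle for Il1f8 is a lower bound, since brain held 0 counts. Receptors of the IL-17 and gamma chain groups all lie to the right of 0, while Il1rapl1, at -9.68, lies farthest to the left.

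With detection set at 1 CPM in each of an organ's 4 libraries, 36 members were detected in uterus and 23 in brain. There were 21 detected in both organs, of which 13 were called higher in uterus, 7 higher in brain and 1, Il18bp, was not called. Among all 12316 genes at that level in all 8 libraries, the call was toward uterus for 45.3% and toward brain for 41.1%. The members detected in uterus but not in brain numbered 15, and 12 of them were receptor chains. Among the 47 tested members, 33 were receptor or binding protein genes. The share of all genes detected in only 1 organ was not counted. Only Il1rapl1 and Il1rapl2 were detected in brain but not in uterus. All 4 uterus libraries stood above all 4 brain libraries in 30 of the 31 members called toward uterus, and the organs also did not overlap in the 12 called toward brain. Over all tested genes, 42.0% had uterus wholly above brain and 42.0% brain wholly above uterus.

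Per kilobase of annotated exon, which allows genes to be set in order, the uterine set was led by Il17rb at 50.6 ± 24.5 CPM per kb, followed by Il13ra1 at 16.4 ± 1.03, Il1r1 at 15.2 ± 3.63 and Il4ra at 14.3 ± 3.21. The last 3 did not differ from each other beyond their spread. Il17rc and Il15 came next, at 11.2 ± 0.390 and 11 ± 2.18 CPM per kb. The brain set was led by ligands: Il33 at 22.4 ± 5.28 CPM per kb, Il18 at 13.6 ± 0.658, Il4 at 9.27 ± 0.585 and Il17d at 7.97 ± 0.367, before the receptor chain Il1rap at 5.14 ± 0.251. The place of Il4 is uncertain, since the part of transcripts of its neighbour Kif3a in its counts was not tested. With the longest transcript as the length, Il1r1 and Il4ra passed Il13ra1 in uterus, and in brain Il4 passed Il18 and Il1rap passed Il17d.

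The upstream sequences of 4 genes are shown because they carry the 2 sides of the comparison: a uterine ligand and its own receptor (Il1f8 and Il1rl2), the uterine receptor with the highest level per kilobase (Il17rb), and the gene with the largest change toward brain (Il1rapl1). Each is the 250 bases before the annotated start, from RefSeq on GRCm38.p6, written 5′ to 3′ on the gene's strand, with motif matches in capitals. The windows are chr2:24152922-24153171 (+), chr1:40324339-40324588 (+), chr14:30008897-30009146 (-) and chrX:88115949-88116198 (-) in that order. Windows and motif positions are set by the RefSeq start, which can differ from the gene coordinates in the text, taken from GENCODE. The Il1f8 window runs past the GENCODE start, and the Il1rl2 and Il1rapl1 windows stop short of theirs.
Il1f8: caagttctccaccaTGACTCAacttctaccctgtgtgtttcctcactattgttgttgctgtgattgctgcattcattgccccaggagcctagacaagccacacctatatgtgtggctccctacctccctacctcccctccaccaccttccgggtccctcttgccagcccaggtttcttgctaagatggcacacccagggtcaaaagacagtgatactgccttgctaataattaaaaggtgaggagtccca
Il1rl2: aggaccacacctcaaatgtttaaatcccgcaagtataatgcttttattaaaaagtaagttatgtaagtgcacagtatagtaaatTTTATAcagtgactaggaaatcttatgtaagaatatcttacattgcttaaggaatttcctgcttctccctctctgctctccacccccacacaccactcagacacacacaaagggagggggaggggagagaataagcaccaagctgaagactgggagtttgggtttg
Il17rb: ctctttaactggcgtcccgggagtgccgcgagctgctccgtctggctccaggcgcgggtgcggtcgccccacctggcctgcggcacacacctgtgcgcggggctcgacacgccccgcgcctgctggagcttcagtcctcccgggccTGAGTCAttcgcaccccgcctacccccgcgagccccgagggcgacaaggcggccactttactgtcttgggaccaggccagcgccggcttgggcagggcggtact
Il1rapl1: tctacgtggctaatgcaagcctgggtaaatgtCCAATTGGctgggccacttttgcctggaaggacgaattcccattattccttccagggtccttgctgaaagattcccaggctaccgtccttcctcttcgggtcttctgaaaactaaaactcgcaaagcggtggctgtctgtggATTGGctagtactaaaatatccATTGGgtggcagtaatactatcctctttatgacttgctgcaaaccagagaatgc

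Both strands of these windows were searched for TATAAA (the TATA box), CCAAT (the CCAAT box), TGANTCA (bound by AP-1 factors), TTCNNNGAA (bound by STAT factors), an NF-kB motif, given by name only, and AGAACA (a half-site of steroid receptors such as the progesterone receptor). The Il1f8 and Il17rb windows each held 1 AP-1 match, 236 and 104 bases before the start, and 6.75% of all 32851 promoter windows of this length held one. The Il1rl2 window held a TATA match on the other strand, 166 bases before the start, which is far from the usual place of that element, and 12.4% of all windows held a match. The Il1rapl1 window held 4 CCAAT matches, 2 of which overlap in a palindrome, while 33.8% of all windows held at least 1. None of the 4 windows held the STAT, NF-kB or half-site letters, which occur in 7.02%, 0.356% and 16.1% of windows. CpG dinucleotides numbered 27 in the Il17rb window and 1 each in those of Il1f8 and Il1rl2, with 6 in that of Il1rapl1 and a median of 6 over all windows. A match is a description of letters and not a site.

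IL-36, an epithelial member of the IL-1 family, had its beta ligand and its receptor in uterus. Il1f8, which encodes IL-36 beta (ENSMUSG00000026985, chromosome 2, 24153161 to 24160519), had 7.73, 4.89, 9.16 and 3.59 CPM in uterus libraries 1 to 4, and 0 counts in every brain library. It was at least 346-fold higher in uterus, taken against 3 counts over the brain group (adjusted p = 7.37e-06). Il1rl2, the IL-36 receptor gene (ENSMUSG00000070942, chromosome 1, 40324610 to 40367562), had 40.2, 44.2, 37.1 and 31.3 CPM in uterus, against 2.35, 1.20, 0.670 and 1.37 in brain. The receptor was thus well above brain in every uterus, with a log2 fold change of 4.79 ± 0.29 (adjusted p = 7.35e-08). The other ligands that use this receptor did not pass the filter: Il1f9 (IL-36 gamma) had 57 counts in uterus and 6 in brain, Il1f6 (IL-36 alpha) had 12 and 0, and the antagonist gene Il1f5 had 3 and 12. Il1f10, which encodes IL-38, had 0 counts in all 8 libraries.

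The accessory chain that IL-36, IL-1 and IL-33 receptors share went the other way. Il1rap (ENSMUSG00000022514, chromosome 16, 26581704 to 26730117) had 12.9, 9.31, 10.2 and 11.8 CPM in uterus, against 56.1, 61.4, 55.8 and 60.1 in brain. The brain libraries were all above the uterus libraries, at a log2 fold change of -2.40 ± 0.10 (adjusted p = 4.09e-09). Its relatives Il1rapl1 and Il1rapl2 encode IL-1 receptor accessory proteins known in neurons as organisers of synapses. Il1rapl1 (ENSMUSG00000052372, chromosome X, 86740870 to 88115645) had 0, 0, 0.0507 and 0.0466 CPM in uterus and 24.6, 21.8, 19.7 and 23.6 in brain. With 4 counts in all of uterus it gave the largest change toward brain among the members, -9.68 ± 0.31 (adjusted p = 5.89e-10). Il1rapl2 had 0.0755, 0, 0 and 0.0466 CPM in uterus and 3.48 to 4.30 in brain (-6.85 ± 0.47, adjusted p = 1.83e-07), but -7.65 without uterus library 1, which held 3 of its 5 uterine counts.

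**Figure D2:**
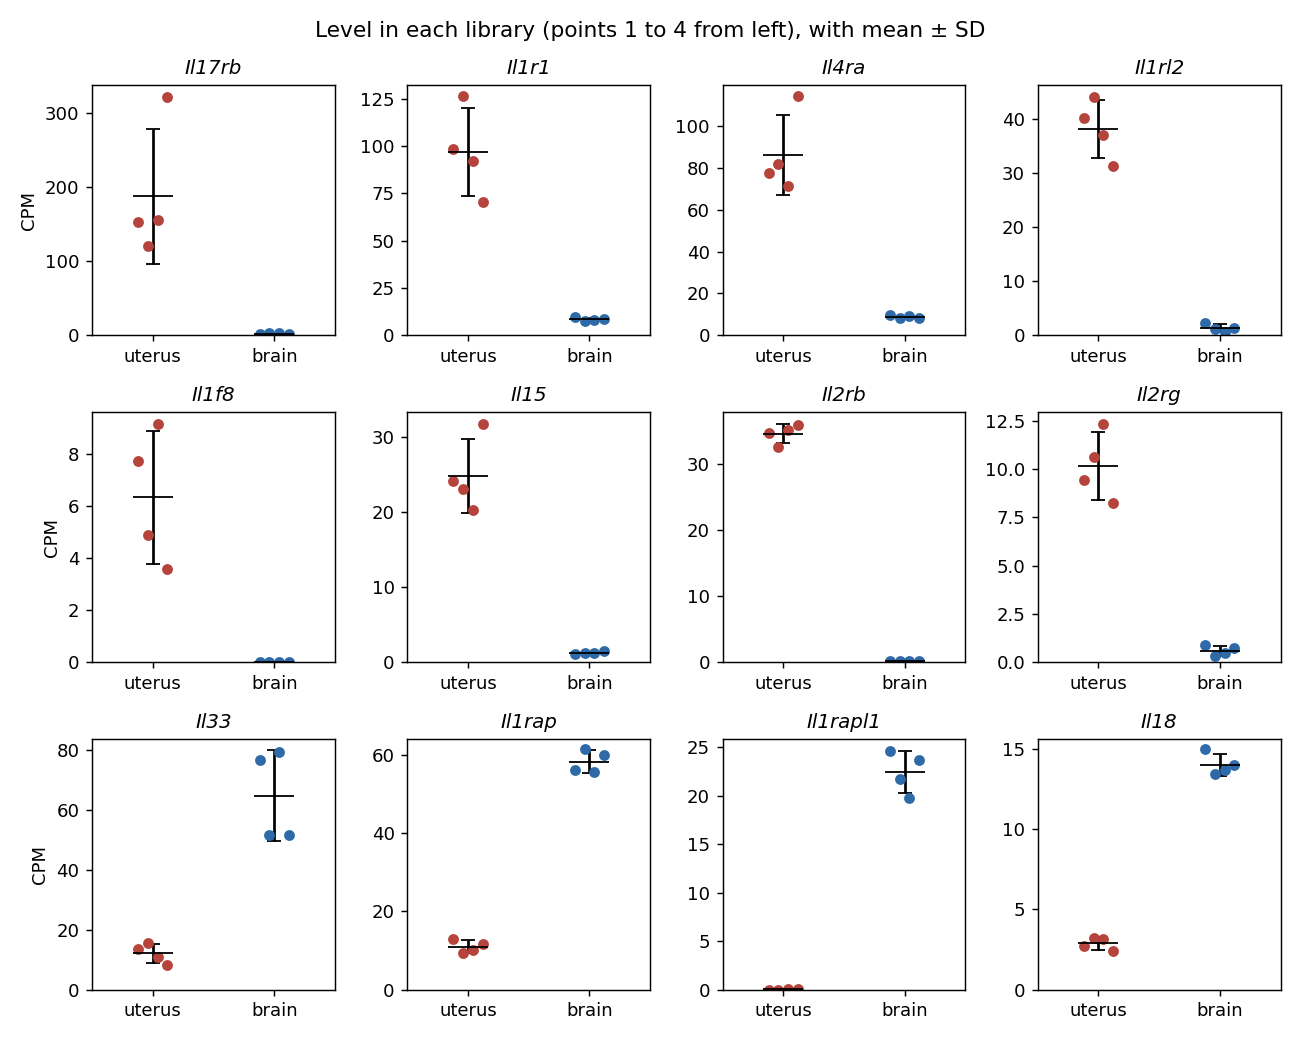
CPM in each library (y axes, linear from 0) for 12 members in uterus and brain (x axes); points are libraries 1 to 4 from left to right, and bars are mean ± SD. The organs do not overlap in any of the 12, all of them called members. Of all tested genes, 42.0% had uterus wholly above brain and 42.0% brain wholly above uterus. The Il17rb level of uterus library 4, 321 CPM, stands apart from the other 3 uteri.

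In uterus the receptor gene of IL-1 stood above its ligand genes per kilobase of exon, Il1r1 at 15.2 ± 3.63 CPM per kb, Il1b at 0.835 ± 0.296 and Il1a at 0.481 ± 0.28. Il1r1, the signalling receptor of IL-1 (ENSMUSG00000026072, chromosome 1, 40225080 to 40317257), had 98.5, 126, 92.2 and 70.3 CPM in uterus, against 9.53, 7.82, 8.32 and 8.49 in brain. Every uterus exceeded every brain, with a log2 fold change of 3.50 ± 0.17 (adjusted p = 1.43e-08). Il1r2, the decoy receptor that binds IL-1 without signalling, had 6.57, 5.17, 8.93 and 3.96 CPM in uterus and 0.213 to 0.810 in brain (3.74 ± 0.39, adjusted p = 5.93e-06). Il1b averaged 1.59 ± 0.565 CPM in uterus and 0.277 ± 0.264 in brain (2.55 ± 0.59, adjusted p = 0.00210). Il1a, at 0.95 ± 0.552 CPM in uterus and 0.819 ± 0.383 in brain, was not called (0.22 ± 0.46, adjusted p = 0.664). Il1rn, which encodes the IL-1 receptor antagonist, averaged 0.604 ± 0.0800 CPM in uterus and 0.0321 ± 0.0395 in brain, and was called higher in uterus (4.18 ± 0.61, adjusted p = 7.44e-05).

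For IL-33 and IL-18 the ligand was higher in brain, and the receptor chains Il1rl1, Il18r1 and Il18rap were higher in uterus. The accessory chain of the IL-33 receptor, Il1rap, was higher in brain (-2.40 ± 0.10). Il33, an alarm cytokine kept in the nucleus of glia, endothelium and epithelium (ENSMUSG00000024810, chromosome 19, 29925114 to 29960718), had 13.5, 15.7, 10.8 and 8.30 CPM in uterus, against 76.5, 51.5, 79.1 and 51.5 in brain. The lowest brain stood well above the highest uterus, and the log2 fold change was -2.42 ± 0.22 (adjusted p = 2.17e-06). Its receptor chain Il1rl1, known as ST2, had 1.11, 1.29, 2.79 and 1.10 CPM in uterus and 0.118 to 0.461 in brain (2.49 ± 0.46, adjusted p = 0.000473). Uterus library 3, the highest for Il1rl1, also had the highest sum of 5 mast cell markers: the sums were 5.74, 8.84, 20.4 and 2.05 CPM in uterus libraries 1 to 4, against 0.237 to 0.646 in brain. ST2 is a known receptor of mast cells, and the part these cells have in the Il1rl1 value was not tested.

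Il18, which encodes an interferon-gamma-inducing cytokine (ENSMUSG00000039217, chromosome 9, 50554827 to 50581840), had 2.72, 3.22, 3.15 and 2.42 CPM in uterus, against 15, 13.4, 13.7 and 14.0 in brain. It was lower in every uterus than in any brain (-2.28 ± 0.12, adjusted p = 2.22e-08). Il18r1, the ligand-binding receptor chain, had 7.58, 2.54, 8.47 and 6.18 CPM in uterus and 0.0540, 0.184, 0 and 0.0710 in brain. Its log2 fold change was 6.25 ± 0.61 (adjusted p = 3.79e-06), and 7.15 without brain library 2, which held 8 of the 13 brain counts. The accessory chain Il18rap averaged 4.79 ± 0.900 CPM in uterus and 0.180 ± 0.205 in brain (4.77 ± 0.50, adjusted p = 7.06e-06), but 5.90 without brain library 1. Il18bp, the soluble inhibitor of IL-18, had 11, 13.3, 12.5 and 11.7 CPM in uterus and 12.6, 11.3, 12.7 and 13.7 in brain. It was not called (-0.06 ± 0.10, adjusted p = 0.589), and 80 bases of its exons overlap Numa1 on the other strand.

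Of the 10 IL-1 receptor and binding protein genes, 6 lie side by side on chromosome 1, over 477.6 kb from 40074079 to 40551705, in the order Il1r2, Il1r1, Il1rl2, Il1rl1, Il18r1 and Il18rap. All 6 were called higher in uterus, past a 2-fold change, where 23.5% of all tested genes passed it toward uterus. Their log2 fold changes were 2.49 to 6.25. The 3 other table genes within 200 kb were not called higher in uterus. Map4k4, a kinase gene before Il1r2, averaged 181 ± 4.10 CPM in uterus and 188 ± 9.45 in brain and was not called (-0.05 ± 0.05, adjusted p = 0.367). The sodium-hydrogen exchanger genes Slc9a4 and Slc9a2, which follow Il18rap, were higher in brain (-5.76 ± 0.46 and -2.30 ± 0.23). The 4 members of the group that lie elsewhere were higher in brain (Il1rap, Il1rapl1 and Il1rapl2) or not called (Il18bp). The cluster was picked out after its values were seen, and its genes were not tested as a set.

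**Figure D3:**
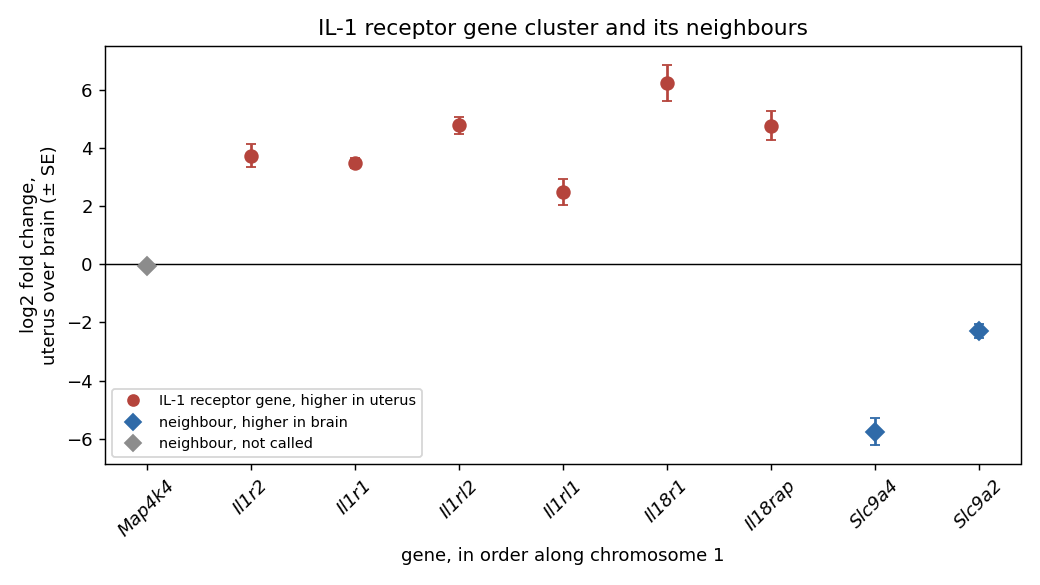
Log2 fold change of uterus over brain with its SE (y axis) for the 6 IL-1 receptor genes of chromosome 1 and the 3 other table genes within 200 kb, in chromosomal order (x axis). The 6 receptor genes lie between 2.49 and 6.25, while Slc9a4 and Slc9a2 on their right lie at -5.76 and -2.30.

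All 4 genes of the IL-15 system were called higher in uterus, as were 43.5% of all tested genes. Il15 (ENSMUSG00000031712, chromosome 8, 82331632 to 82403222) had 24.1, 23.1, 20.2 and 31.8 CPM in uterus, against 1.19, 1.29, 1.22 and 1.47 in brain. The lowest uterus was far above the highest brain (4.26 ± 0.17, adjusted p = 2.57e-09). Il15ra, which presents IL-15 to neighbouring cells, averaged 23.7 ± 2.61 CPM in uterus and 6.11 ± 0.399 in brain (1.95 ± 0.10, adjusted p = 2.49e-08). Il2rb, the signalling beta chain for IL-2 and IL-15 (ENSMUSG00000068227, chromosome 15, 78479256 to 78495271), had 34.8, 32.5, 35.2 and 35.9 CPM in uterus, against 0.189, 0.208, 0.254 and 0.236 in brain. That difference, 7.26 ± 0.11 or 153-fold, was the largest toward uterus among members with brain counts, and the 4 uteri varied little (adjusted p = 6.88e-12). Il2rg, the common gamma chain, had 9.41, 10.6, 12.3 and 8.28 CPM in uterus and 0.323 to 0.918 in brain (4.06 ± 0.28, adjusted p = 2.37e-07).

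Il2rb and Il2rg are known in natural killer and T cells, and markers of both cell types were higher in uterus. Of 6 natural killer markers 5 were called higher in uterus, their sum being 43.0 to 56.7 CPM in uterus and 10.7 to 15.5 in brain, where the neuronal factor Eomes made up most of it. Of 6 T cell markers 5 were tested and all 5 were higher in uterus, with sums of 18.9 to 27.2 CPM in uterus and 1.51 to 1.71 in brain. Over all tested genes, 43.5% were called toward uterus. No marker of either list was at 0 counts in either organ. The part of these cells in the Il2rb, Il2rg and Il18r1 levels was not tested. Across the uteri, library 2 had the lowest Il18r1 level as well as the lowest sums of natural killer (43.0 CPM) and T cell (18.9 CPM) markers. Il2rg did not follow, with 10.6 CPM in library 2 and its lowest level, 8.28 CPM, in library 4. Il2rb was lowest in library 2, at 32.5 CPM, but varied little between the uteri. Among single markers, Ncr1, Klrb1c, Prf1 and Cd3g were lowest in library 3 or 4, and the others in library 2.

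The ligand gene Il7 and the receptor genes Il7r, Il21r and Il2ra were also called higher in uterus. Il7, which encodes a survival factor of lymphocytes made by stroma and epithelium, had 3.45, 2.49, 4.57 and 2.52 CPM in uterus, against 0.270, 0.138, 0.462 and 0.142 in brain (3.67 ± 0.39, adjusted p = 8.03e-06). Its receptor Il7r averaged 1.5 ± 0.698 CPM in uterus and 0.367 ± 0.0852 in brain (2.02 ± 0.40, adjusted p = 0.000774). Il21r averaged 6.69 ± 0.991 CPM in uterus and 1.36 ± 0.518 in brain (2.31 ± 0.26, adjusted p = 1.24e-05). Il2ra, the inducible alpha chain for IL-2, was called higher in uterus (1.32 ± 0.37, adjusted p = 0.00723) but its libraries overlapped, with 0.753 to 2.08 CPM in uterus and 0.416 to 0.784 in brain. The ligands Il2, Il9, Il13 and Il21 and the receptor Il9r did not pass the filter. Il2 had 3 counts in uterus and 2 in brain, Il9 had 4 and 0, Il13 had 7 and 8, Il21 had 0 and 24, and Il9r had 23 and 5.

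For IL-4 and IL-13, which drive type 2 responses, both receptor chains were high in uterus. Il4ra, shared by both cytokines (ENSMUSG00000030748, chromosome 7, 125552120 to 125579474), had 77.3, 81.8, 71.1 and 114 CPM in uterus, against 9.50, 8.07, 9.19 and 8.42 in brain. Every uterus was above every brain, library 4 the most (3.29 ± 0.15, adjusted p = 9.40e-09). Il13ra1 had 58.6, 61.2, 65.9 and 57.3 CPM in uterus and 9.84 to 11.6 in brain (2.49 ± 0.07, adjusted p = 2.96e-10). Il4 had 3.73, 3.25, 4.51 and 3.36 CPM in uterus, against 11.9, 10.3, 11.6 and 11.7 in brain, and was called higher in brain (-1.62 ± 0.13, adjusted p = 7.02e-07). Kif3a, a kinesin motor gene that ends 1014 bases from Il4 on chromosome 11, stood at 63.4 ± 7.91 CPM in uterus and 169 ± 11.3 in brain (-1.42). The strand setting of the counting is not given in the sources used here, and the part of Kif3a transcripts in the Il4 counts was not tested. Il3ra, the receptor chain of IL-3, averaged 11.2 ± 1.71 CPM in uterus and 1.40 ± 0.205 in brain (3.0 ± 0.16, adjusted p = 3.49e-08), while its ligand Il3 had 0 counts in uterus and 2 in brain. Il5 had 23 counts in uterus and 14 in brain, and its receptor Il5ra had 42 and 1, a ratio of 42.4 (exact Poisson 95% interval 7.20 to 1712, too narrow if read pairs were counted as 2).

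All 5 IL-17 receptor genes were higher in uterus, and 4 of them passed a 2-fold change. Toward uterus, 43.5% of all tested genes were called and 23.5% passed a 2-fold change. Il17rb, the receptor chain for IL-25 and IL-17B (ENSMUSG00000015966, chromosome 14, 29996135 to 30008896), had 153, 120, 155 and 321 CPM in uterus, against 1.67, 2.70, 2.87 and 2.29 in brain. Library 4 was above the other 3 uteri, and the lowest uterus was still far above every brain (6.29 ± 0.37, adjusted p = 6.28e-08, and 5.91 without uterus library 4). Of its 3707 exonic bases, 141 overlap Actr8 on the other strand, a gene that stood at 33.1 ± 2.88 CPM in uterus and 53.8 ± 0.817 in brain. The sum of 5 epithelial markers was 540, 579, 617 and 651 CPM in uterus libraries 1 to 4, against 5.81 to 8.96 in brain, and the part of epithelium in the Il17rb level was not tested. The ligands of Il17rb did not pass the filter: Il25 had 10 counts in uterus and 25 in brain, and Il17b had 23 and 22.

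Il17rc, which pairs with IL17RA to bind IL-17A and IL-17F, was even between libraries of an organ. It had 30.3, 29.2, 31.2 and 28.9 CPM in uterus, against 4.26, 3.88, 3.56 and 3.93 in brain (2.94 ± 0.08, adjusted p = 2.23e-10). Its neighbour on chromosome 6, the IL-17C receptor gene Il17re, averaged 14.4 ± 1.67 CPM in uterus and 2.04 ± 0.697 in brain (2.82 ± 0.21, adjusted p = 4.66e-07). Il17rd, which restrains fibroblast growth factor signalling, averaged 34.9 ± 3.32 CPM in uterus and 8.68 ± 0.494 in brain (2.0 ± 0.09, adjusted p = 5.72e-09). The shared chain Il17ra differed least, with 29.2, 35.9, 30.1 and 40.0 CPM in uterus and 23.7, 22.8, 21.6 and 20.1 in brain (0.62 ± 0.11, adjusted p = 0.000296). Of the ligands, Il17d was the only tested gene, at 5.11 ± 0.646 CPM in uterus and 10.2 ± 0.467 in brain (-0.99 ± 0.11, adjusted p = 1.39e-05). Il17a had 2 counts in uterus and 0 in brain, Il17c had 14 and 2, and Il17f had 4 and 2.

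**Figure D4:**
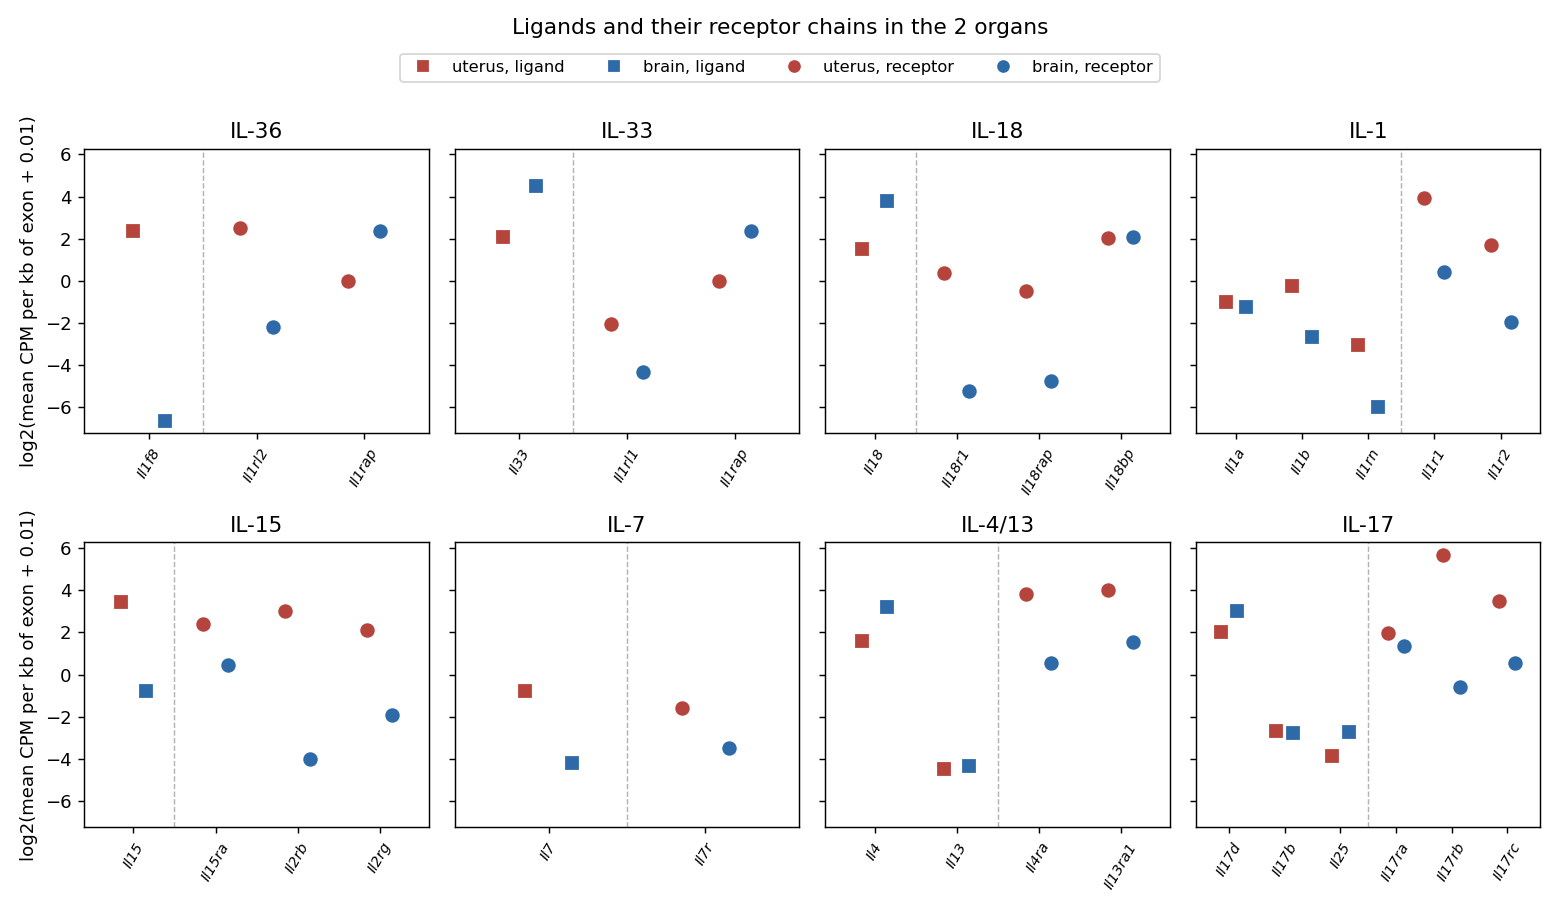
Mean level on a log2 scale of CPM per kilobase of exon plus 0.01 (y axes) for ligand genes (squares) and receptor or binding protein genes (circles) of 8 cytokine systems, in uterus (red) and brain (blue). Il33, Il18, Il4 and the accessory chain Il1rap are higher in brain, while Il1rl1, Il18r1, Il18rap, Il4ra and Il13ra1 are higher in uterus. Il15 and its 3 chains are higher in uterus. Il1f8 in brain, at 0 counts, is drawn at the added 0.01.

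Of the 6 IL-10 family members tested, 5 were receptor chains. Il10ra, the IL-10-binding chain of leukocytes and microglia, had 12.3, 13.2, 13.9 and 8.81 CPM in uterus, against 7.61, 6.80, 6.88 and 6.65 in brain. Every uterus was above every brain, but the change, 0.79 ± 0.14, did not pass the 2-fold test (adjusted p = 0.000451 for any change). Il10rb, shared by IL-10, IL-22 and the lambda interferons, averaged 20.4 ± 2.58 CPM in uterus and 6.22 ± 1.19 in brain (1.71 ± 0.15, adjusted p = 2.16e-06). The 2 chains of an IL-20 receptor went in opposite directions. Il20ra averaged 4.23 ± 2.94 CPM in uterus and 0.816 ± 0.238 in brain (2.37 ± 0.46, adjusted p = 0.000706), but 1.78 without uterus library 2, while Il20rb averaged 7.64 ± 2.04 in uterus and 14.3 ± 0.603 in brain (-0.90 ± 0.17, adjusted p = 0.000615). Il22ra1 was not called, at 0.301 ± 0.139 CPM in uterus and 0.108 ± 0.124 in brain (1.5 ± 0.80, adjusted p = 0.0967), while Il22ra2 had 4 counts in uterus and 2 in brain.

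Among IL-10 family ligands, Il22 was the only tested gene, and its level in brain was low. With 0.92 CPM in brain library 2, it missed the detection limit of 1 CPM in each brain library. It had 2 counts in uterus, all in library 4, and 43, 40, 57 and 46 counts in brain libraries 1 to 4, or 1.12 ± 0.164 CPM. The ratio of brain to uterus was 92.2 (exact Poisson 95% interval 25.2 to 767, with the same limit), and the gene was called higher in brain (adjusted p = 2.52e-06). Il10, the anti-inflammatory ligand, had 17 counts in uterus and 0 in brain, Il20 had 19 and 0, Il19 had 12 and 6, and Il24 had 4 and 1.

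In the IL-12 family, Il27ra, the receptor gene for IL-27, had 7.17, 6.77, 7.38 and 5.57 CPM in uterus, against 0.486, 0.415, 0.416 and 0.544 in brain. It was called higher in uterus (3.85 ± 0.17, adjusted p = 7.81e-09). Il12rb1, shared by IL-12 and IL-23, averaged 2.81 ± 0.434 CPM in uterus and 0.904 ± 0.375 in brain (1.63 ± 0.29, adjusted p = 0.000424). Il12rb2 went the other way, at 0.369 ± 0.161 CPM in uterus and 0.853 ± 0.0812 in brain (-1.21 ± 0.31, adjusted p = 0.00433), with 1519 bases of its exons overlapping Serbp1 on the other strand. Of the ligands, Il12a averaged 0.0596 ± 0.0486 CPM in uterus and 1.25 ± 0.394 in brain (-4.30 ± 0.54, adjusted p = 2.50e-05). Il23a was not called, at 0.381 ± 0.135 CPM in uterus and 0.286 ± 0.0743 in brain (0.41 ± 0.36, adjusted p = 0.304). Il12b had 28 counts in uterus and 2 in brain, Il27 had 13 and 7, and Il23r had 41 and 10.

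Il16, which encodes a chemoattractant precursor and also a neuronal form, had 9.46, 12, 9.71 and 10.0 CPM in uterus, against 31.7, 30.9, 30.1 and 34.5 in brain (-1.62 ± 0.09, adjusted p = 4.55e-08). Of its 7865 exonic bases, 1202 overlap Stard5 on the other strand, which stood at 29.6 ± 3.66 CPM in uterus and 16.6 ± 0.856 in brain. Il31ra, a receptor chain for the itch cytokine IL-31, averaged 2.73 ± 1.21 CPM in uterus and 0.418 ± 0.155 in brain (2.70 ± 0.40, adjusted p = 0.000109), while Il31 had 0 counts in all 8 libraries. Il4i1, an amino acid oxidase gene named for its induction by IL-4, had 26 counts in uterus and 31 in brain, and 3423 of its exonic bases overlap Tbc1d17 on the other strand. Among members with full statistics, antisense transcripts overlap 571 exonic bases of Il4ra and 552 of Il1rap, and Gm21970 shares 569 bases of Il10rb on the same strand, so those counts are uncertain to that extent. Il2rg shares 728 bases with Gm20489, which had 0 counts in all 8 libraries. The 2 rows of Il11ra2, near-identical copies of Il11ra1 whose reads the counting could split, had 26 and 4 counts in uterus and 17 and 9 in brain.

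Levels varied most between uteri for Il20ra, Il18r1 and Il31ra among members at 2 CPM or more there, with SDs of log2(CPM + 0.1) of 0.86, 0.77 and 0.69. Il20ra had 2.17, 8.54, 3.68 and 2.54 CPM in uterus libraries 1 to 4, and Il31ra had 2.14, 3.90, 1.32 and 3.57. The high library therefore differed from gene to gene: library 2 for Il20ra, library 3 for Il18r1, and library 4 for Il17rb and Il4ra. Among brains, Il17re, Il33 and Il17rb varied most, with SDs of 0.42, 0.34 and 0.33, and Il33 split into 2 libraries at 76.5 and 79.1 CPM and 2 at 51.5 CPM. Il2rb and Il17rc were among the most even members in uterus, at 0.062 and 0.050.

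**Figure D5:**
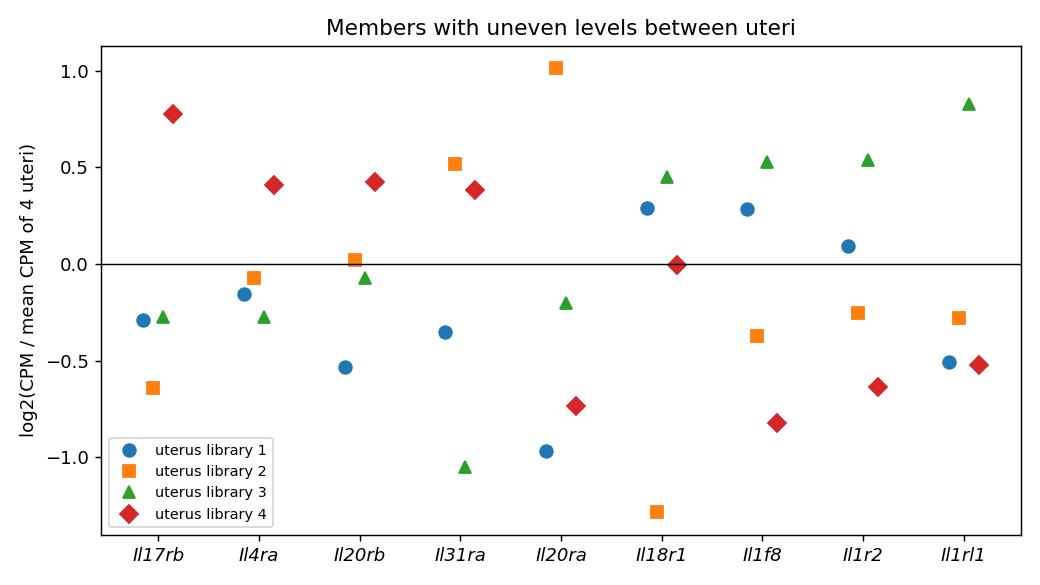
Log2 ratio of each uterus library's CPM to the mean of the 4 uteri (y axis) for 9 members with uneven levels (x axis); each marker is 1 library. Library 4 is highest for Il17rb, Il4ra and Il20rb, library 2 is highest for Il20ra and lowest for Il18r1, and library 3 is highest for Il1f8, Il1r2 and Il1rl1.

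Genes that act with these receptors but carry other names were also mostly higher in uterus. Of 47 such genes, 37 were called toward uterus and 5 toward brain, against 43.5% and 43.6% of all tested genes. Among 9 receptor and ligand partners, 8 were called toward uterus, the median change being 3.18, and Ebi3, a subunit of IL-27, was not called (0.70 ± 0.116 CPM in uterus and 0.419 ± 0.185 in brain). The largest changes were those of Csf2rb2, the IL-3-specific beta chain of mice, and Ifnlr1, the lambda interferon receptor, at 5.29 ± 0.22 and 4.74 ± 0.12. Csf2rb2 and Csf2rb are close copies, so the counting could split their reads. Of 11 JAK and STAT genes, 10 were higher in uterus and Stat5b was not called (60.5 ± 6.04 CPM in uterus and 55.0 ± 2.44 in brain). Stat5a and the gamma chain kinase gene Jak3 changed most, at 3.39 ± 0.27 and 2.57 ± 0.09.

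Of 19 genes of IL-1 and IL-17 signalling, 13 were called toward uterus and 3 toward brain, 3 were not called, and the median change was 1.35. For this and the lists below, 43.5% of all tested genes were called toward uterus and 43.6% toward brain. Myd88, the adaptor of IL-1 receptors, averaged 88.8 ± 22.9 CPM in uterus and 5.62 ± 0.454 in brain (3.98 ± 0.18, adjusted p = 7.19e-09), while the inhibitory kinase gene Irak3 differed by 3.32 ± 0.19. The genes higher in brain were Tollip, an inhibitor of IL-1 signalling (-1.67 ± 0.04), and the TAK1-binding genes Tab3 (-0.43 ± 0.05) and Tab1 (-0.21 ± 0.06). Of the 8 genes of SOCS proteins, which restrain JAK signalling, 6 were higher in uterus, led by Socs3 (3.91 ± 0.14) and Socs1 (2.80 ± 0.19). Socs7 and Socs5 were higher in brain (-1.74 ± 0.06 and -1.30 ± 0.06). The Tab1 call depended on scaling: with upper-quartile scaling it stood at 0.05 and was not called, while Ebi3, Stat5b, Irak2 and Map3k7 were then called toward uterus. Socs6, called toward uterus at 0.22, was not called with RLE scaling (0.18, adjusted p = 0.0671). Of 5 macrophage markers, 4 were called higher in uterus, and none was at 0 counts. They summed to 261 to 330 CPM in uterus and 118 to 149 in brain. Lyz2 made up most of that gap, at 185 ± 27.4 CPM in uterus and 13.15 ± 4.35 in brain. Csf1r was called higher in brain, at 35.9 ± 4.18 CPM in uterus and 94.3 ± 6.0 in brain. The part of macrophages in the levels of these genes was not tested.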

How the data were processed

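Per the submitters' processing notes, the tools were HISAT2 (version 2.0.3), FastQC, edgeR and featureCounts, and the build was GRCm38.p5; per the labels, libraries were made from total RNA with a stranded kit that removes ribosomal RNA. Annotation release, strand setting and the handling of multi-mapping reads: not given in the sources used here. Whether organs of the same number came from 1 mouse is not stated. The authors deposited raw counts per Ensembl gene in whole numbers, with no normalization. The sample titles number 4 libraries for each organ. Each p-value sets the difference between the organs against the spread between these libraries.

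Genes were filtered with filterByExpr by organ, scaled by TMM and tested with edgeR's quasi-likelihood F test (edgeR 4.0.16, R 4.3.3), two-sided, with Benjamini-Hochberg adjustment over all 16074 tested genes at 0.05, and with glmTreat against a 2-fold change. SE was taken as the size of the change over the root of F. Alternatives used DESeq2 1.42.0, limma 3.58.1, other scalings and filters, and each library left out. The procedure was tested on simulated data. Coordinates and exon lengths came from GENCODE M21 on GRCm38, matched by identifier for 19808 of 19884 rows and all 76 members, and promoter sequences from RefSeq on GRCm38.p6, which held 59 of the 75 symbols. Members at a mean of 2 CPM or more in the higher organ were given full statistics (36), other tested members group values (11) and the rest counts (29). Partner genes were named where among the 2 largest changes of a list, or against its majority at 10 CPM or more. Members, lists and tests were chosen with earlier results of these data known.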

Additional observations from a re-analysis of the deposited data

Results flagged for a closer look

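The 4 libraries of an organ were checked for a value far from the others in 36 members and 2 organs, 72 sets in all, and chance flags about 1 in 20 such sets. A set was flagged when the gap of the highest or lowest library to its nearest neighbour, as a share of the whole range, passed Dixon's 95% critical value. Il17re in brain was flagged at 0.859, with 1.62, 1.64, 1.82 and 3.08 CPM in brain libraries 1 to 4. Il18rap in brain was flagged at 0.890, with 0.486, 0.0461, 0.0924 and 0.0946 CPM, or 18, 2, 4 and 4 counts. Brain library 1, the high one for Il18rap, also had the highest sum of 5 neutrophil markers among brains, at 10.6 CPM against 4.82, 1.92 and 3.55 in libraries 2 to 4. S100a8 and S100a9 made up most of the sum in library 1, at 4.372 and 5.695 CPM. Retnlg was also highest there, while Mpo was highest in library 2 and Ly6g had 0 counts in library 1. The part of such cells in the Il18rap value was not tested.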

How the results depend on the processing

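The member calls hardly moved: with DESeq2, limma-voom, scaling by RLE, upper quartile or library size, and leaving out each library in turn, 31 to 32 members were called toward uterus and 12 toward brain, and no call of the 43 was lost. With no low-count filter 40 and 13 were called, and with 1 CPM in 4 libraries 28 and 9, since 38 members were then tested. Past 2-fold, leaving out a library gave 28 to 29 members toward uterus and 9 to 10 toward brain, while DESeq2 and limma-voom each gave 26 and 9, the 1 CPM filter 26 and 7, and no filter 32 and 10. Il18bp, not called, changed sign to 0.20 with the upper quartile and with library size, and ranged from -0.1 to 0.004 as libraries were left out. Both scalings put the median of all genes at 0.27, not 0.012. Library-size scaling leaves out the TMM factors, which were 0.907 to 0.924 in brain libraries and 1.066 to 1.114 in uterus libraries. Why these factors differ between the organs was not tested. Folds moved over 1.5 times for Il18r1, Il18rap, Il1rapl2 and Il20ra without the libraries named above, and for the fitted value of Il1f8, which is no bound, with DESeq2 (10.44) and limma-voom (8.93, against 11.03). Detection at 0.5 CPM gave 39 members in uterus and 29 in brain, and at 2 CPM 33 and 19.

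A replicate block for the library number left 31 members toward uterus and 12 toward brain, and 6898 and 6948 of all genes. Deviations of same-numbered libraries correlated at -0.124, -0.045, 0.125 and 0.099 across genes, so only the pair numbered 3 was above 0.1. Differently numbered pairs ranged from -0.138 to 0.194. Whether the numbers mark shared animals is not known.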

Other observations

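Values of interleukin genes that lie near each other are given here as a description, picked out after they were seen. On chromosome 11, Il4 had 608 counts in uterus and 1884 in brain, while its neighbours Il13 and Il5 had 7 and 23 counts in uterus and 8 and 14 in brain, and Il3 had 0 and 2. On chromosome 1, the ligand genes Il10, Il19, Il20 and Il24 each held at most 19 counts in uterus and at most 6 in brain. On chromosome 7, the neighbours Il4ra and Il21r were both higher in uterus, at 3.29 and 2.31 on the log2 scale, and on chromosome 6 so were Il17rc and Il17re, at 2.94 and 2.82. On chromosome 2, Il1f8 had 1030 counts in uterus and 0 in brain, against 12 and 0 for Il1f6 and 57 and 6 for Il1f9.

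The 18 members with full statistics that were called higher in uterus and had a promoter window held a median of 7 CpG dinucleotides in it (range 1 to 27), and the 9 called higher in brain a median of 6 (range 1 to 30), as a description with no test.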
